A study of Rattus norvegicus with 8 samples.

Results

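Autophagy, the pathway by which a cell encloses part of its own content in a membrane and delivers it to the lysosome, and mitophagy, its form that removes mitochondria, were followed in rat whole blood through 10 genes: Ulk1, Becn1, Wipi1, Map1lc3a, Map1lc3b, Gabarapl2, Sqstm1, Optn, Bnip3l and Bnip3. A probe set was taken as a member where the annotation of the array platform gave it exactly 1 of these 10 symbols, and all such probe sets were kept, which gave 18 of the 31042 tested, for 10 of the 14863 genes named on the array. Of these, 15 named 1 gene each and covered 8 of the 10 members. The other 3 named a member together with a gene that RefSeq lists as a pseudogene: the only Map1lc3b probe set also named Map1lc3b2, and both Gabarapl2 probe sets also named Gabarapl3, so signal of gene and pseudogene cannot be told apart there. They are called Map1lc3b and Gabarapl2 below with that limit.

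The samples were blood of male Wistar rats, bought at 7 weeks of age and acclimated for 1 week. They then ate, for 8 weeks, either a high-fat diet (Quick fat) with 1% mulberry leaf powder added, here the mulberry group, or the high-fat diet alone, here the high-fat group. Each group had 4 arrays, labelled as biological replicates, out of 10 rats per diet, and blood was taken on day 56 after an overnight fast. All 8 arrays thus came from rats on a high-fat diet. Rats on normal chow, which the submitters also describe, were not analysed here. The labels do not say whether an array held 1 rat or a pool, so p-values measure only the spread between these samples.

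Autophagy starts when the ULK1 kinase complex activates a lipid kinase complex that contains Beclin 1, whose product, a phosphorylated membrane lipid, is bound by WIPI proteins at the growing membrane. Proteins of the ATG8 family (the LC3 and GABARAP proteins) are then joined to that membrane and hold cargo through receptors such as p62 (Sqstm1), optineurin (Optn) and the mitochondrial proteins BNIP3L, also called NIX, and BNIP3. In blood the pathway is known for the maturing red cell: in mice, loss of Bnip3l leaves mitochondria in reticulocytes, the young red cells that still carry RNA.

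The deposited log2 values hardly differ between arrays, by an amount of compression that is unknown and may differ between probe sets (median SD over the arrays 5.31e-06), so no difference is given as a fold change. Every value below is instead a deviation in SD units: the array's value minus the mean of that probe set over the 8 arrays, divided by its SD over them. The SD before this scaling ranged among the members from 5.89e-07 (Sqstm1 1389381_at) to 0.000115 (Optn 1370618_at), which is the place of percentile 2.91 and of percentile 96.8 among all tested probe sets. Differences are mulberry minus high-fat in the same units, with the standard error (SE) from limma. Where an array was left out or the arrays were rescaled, the SD was recomputed on the values of that fit. Such a difference can grow or shrink through its unit alone. The limma SE is drawn toward a spread shared by all probe sets. A probe set of low SD can therefore have a wide SE (1.34 for Sqstm1 1389381_at), and its p-value leans on that shared value.

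Of the marker genes of blood cells, the brighter ones of several lists had deposited log2 values of 15.09 for Hbb (beta globin), 13.85 for Alas2 (the first enzyme of heme synthesis in red cells), 12.67 for Pf4 (platelet factor 4), 11.10 for S100a9 (a neutrophil calprotectin chain) and 10.52 for Cd3g (a T cell receptor chain), on arrays that ran from 5.17 to 15.26. Below the median level of all probe sets lay 6 of 11 measured neutrophil markers, 1 of 20 erythroid, 2 of 13 monocyte and 2 of 11 natural killer cell markers, and none of the platelet, T cell or B cell markers. High-fat replicate 4 stood apart. It was the array farthest from the mean in 17.8% of probe sets, against 9.20% to 13.0% for each of the other 7. Its natural killer cell marker score was 2.07 SD units and its platelet marker score -1.45, so several values below are also given without it. In blood RNA, fewer cells of a type and less RNA per cell cannot be told apart.

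No member, and no probe set at all, passed the threshold of 0.05 after adjustment over all probe sets by limma (0.0% called, lowest adjusted p of any probe set 0.569, of any member 1.00). Before adjustment 4 of the 18 member probe sets had p under 0.05, all 4 higher in mulberry blood, where 4.36% of all probe sets were under that limit and 2.74% were under it and higher. These 4 were both probe sets of Optn, 1 of the 2 of Wipi1 and the 1 of Map1lc3a. The members were chosen with earlier results of these data known. Member counts beside the shares of all probe sets therefore only describe the list and are no test of it. In 3 of the 18, again all higher, the 4 mulberry arrays lay above all 4 high-fat arrays, against 2.52% of all probe sets without overlap in either direction, 1.6% in that one and 0.915% in the opposite one. Of the 15 probe sets naming 1 gene, 9 were higher and the same 4 had an unadjusted p under 0.05 (limma). In all, 11 of the 18 had a higher mean in mulberry blood, with a median difference of 0.330 SD units, beside 52.7% of all probe sets and a median of 0.0560. Without high-fat replicate 4, 9 of the 18 were higher with a median difference of -0.0536, beside 52.2% of all probe sets and a median of 0.0444. In that fit 3 of the 18 had an unadjusted limma p under 0.05, beside 3.81% of all, and Optn 1388432_at was no longer among them (limma unadjusted p = 0.0884). It was also above 0.05 without mulberry replicate 1 or high-fat replicate 1, 2 or 3 (limma unadjusted p from 0.0612 to 0.0953). Without mulberry replicate 2, 3 or 4 it stayed under 0.05. The counts of members also moved with the scaling of the arrays: 18 of 18 were higher after each array was centred on its median, where the median was 1.15 for the members and 1.15 for all probe sets, of which 96.9% were higher. Quantile normalization keeps only the rank of a probe set on its array, and the members' ranks differed by 0 to 3 places between arrays. It left 6 member probe sets without spread, and of the other 12, 7 were higher, with a median of 0.433, beside 36.4% and a median of -0.203 over the 25669 probe sets with a value.

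**Figure D1:**
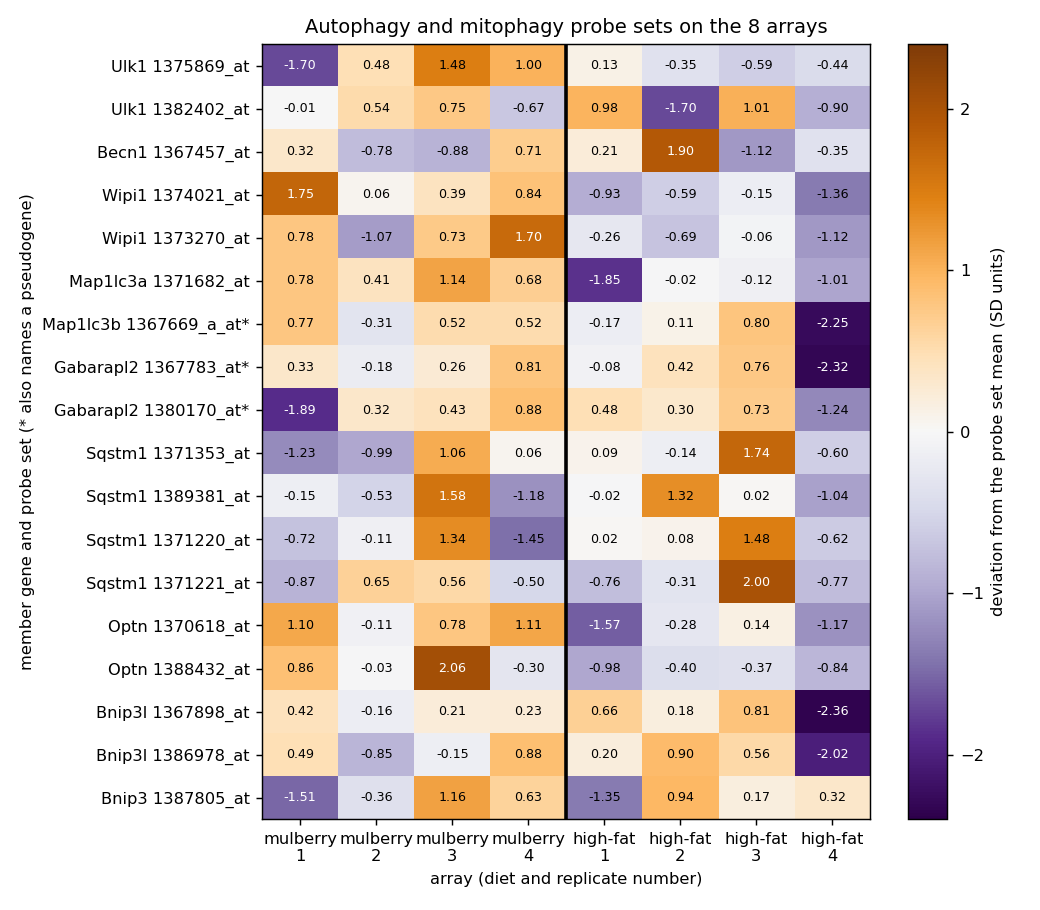
Deviation of each member probe set from its own mean (colour and printed value, SD units) on the 4 mulberry arrays and the 4 high-fat arrays; rows are probe sets in pathway order, and an asterisk marks those that also name a pseudogene. The Wipi1, Map1lc3a and Optn rows are mostly above 0 with mulberry and below 0 with the high-fat diet alone, and high-fat replicate 4 is the lowest array in both Bnip3l rows, in Map1lc3b and in Gabarapl2 1367783_at, at -2.02 to -2.36.

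The start sites of the genes the results turn on are shown here as the RefSeq promoter windows of rat build GRCr8, 250 bases before to 50 after the start, written 5′ to 3′ on the gene's strand. Wipi1 and Optn are shown because they were higher together with mulberry, Map1lc3b and Gabarapl2 because their values tracked each other across the arrays. RefSeq windows were matched by gene number for 7 of the 10 members, and the first listed for each gene was used. Bnip3l, Map1lc3a and Becn1 had no entry. Capitals mark exact matches on either strand to 5 motifs: the E-box CACGTG, the hypoxia response core ACGTG (every E-box also holds it), the GATA motif AGATAA, the GC box GGGCGG and the ETS motif CCGGAAG.
Wipi1, chr10:95079244-95079543, minus strand: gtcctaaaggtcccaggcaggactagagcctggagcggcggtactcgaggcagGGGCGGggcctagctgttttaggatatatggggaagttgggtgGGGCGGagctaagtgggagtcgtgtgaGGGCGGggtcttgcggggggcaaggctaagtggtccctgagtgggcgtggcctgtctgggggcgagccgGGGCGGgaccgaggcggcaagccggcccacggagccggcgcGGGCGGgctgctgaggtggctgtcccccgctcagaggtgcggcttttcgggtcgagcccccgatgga
Optn, chr17:78118619-78118918, plus strand: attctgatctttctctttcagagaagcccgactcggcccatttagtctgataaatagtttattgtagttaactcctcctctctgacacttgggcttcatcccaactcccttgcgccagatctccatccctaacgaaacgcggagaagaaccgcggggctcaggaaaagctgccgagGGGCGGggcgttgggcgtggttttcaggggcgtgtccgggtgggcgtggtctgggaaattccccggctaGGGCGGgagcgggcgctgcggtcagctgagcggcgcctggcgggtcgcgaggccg
Map1lc3b, chr19:66574345-66574644, plus strand: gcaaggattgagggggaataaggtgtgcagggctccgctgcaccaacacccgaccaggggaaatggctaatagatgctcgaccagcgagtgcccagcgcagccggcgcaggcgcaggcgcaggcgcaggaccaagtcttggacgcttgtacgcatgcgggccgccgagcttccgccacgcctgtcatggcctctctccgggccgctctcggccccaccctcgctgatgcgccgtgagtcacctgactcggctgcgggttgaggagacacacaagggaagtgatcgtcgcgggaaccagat
Gabarapl2, chr19:56819576-56819875, plus strand: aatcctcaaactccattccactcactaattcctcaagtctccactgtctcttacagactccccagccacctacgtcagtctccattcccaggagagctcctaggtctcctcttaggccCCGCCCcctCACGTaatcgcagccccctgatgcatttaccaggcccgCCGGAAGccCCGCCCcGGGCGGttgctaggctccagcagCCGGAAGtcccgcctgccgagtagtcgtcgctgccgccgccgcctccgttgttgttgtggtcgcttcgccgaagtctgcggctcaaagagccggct

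The Wipi1 window held 5 GC boxes and the Optn window 2, and neither held another of the searched motifs. The Gabarapl2 window held 3 GC boxes, 2 ETS motifs and 1 hypoxia response core, and the Map1lc3b window none of the 5. The Map1lc3b and Wipi1 windows lie inside the RefSeq spans of their genes (chr19:66571631-66582270 and chr10:95042451-95079679). The outermost start of these genes was therefore not searched. Among the other 3 members with a window, Bnip3, a gene induced by low oxygen, held 1 E-box, 2 hypoxia response cores, both within it on opposite strands, and 6 GC boxes, while Sqstm1 held 3 GC boxes and Ulk1 1. Of all 33469 windows of that length, 33.1% held a GC box, 6.42% an E-box, 19.3% a hypoxia response core, 11.6% a GATA motif and 8.75% an ETS motif. These are matches of letters in promoters rich in G and C (from 60.7% in Optn to 76.7% in Ulk1), not sites.

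Ulk1 encodes the kinase that starts autophagosome formation. Its brighter probe set, 1375869_at (mean log2 7.38), stood at -1.70, 0.477, 1.48 and 1.00 SD units in mulberry replicates 1 to 4 and at 0.129, -0.350, -0.593 and -0.441 in high-fat replicates 1 to 4. Mulberry replicate 1 was the lowest of all 8 arrays and the other 3 mulberry arrays were the highest, so the diets overlapped (difference 0.628 ± 0.724, SE, limma unadjusted p = 0.416). Without mulberry replicate 1 the difference was 1.66, in units of the SD of the arrays left. The second probe set, 1382402_at, ranged from -0.673 to 0.751 in mulberry and from -1.70 to 1.01 in high-fat blood (difference 0.304 ± 0.746). Over the 8 arrays the probe sets of this gene had r = 0.175 and rho = 0.0476 (exact permutation p = 0.675 and 0.935).

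Becn1 encodes Beclin 1, the scaffold of the lipid kinase complex. Its 1 probe set stood at 0.325, -0.784, -0.879 and 0.705 SD units in mulberry and at 0.208, 1.90, -1.12 and -0.355 in high-fat replicates 1 to 4. The highest array was high-fat replicate 2 and the lowest high-fat replicate 3, with all 4 mulberry arrays between them. The difference was -0.316 ± 0.716 (SE, limma unadjusted p = 0.672), and it turned to 1.17 after median centring.

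Wipi1 encodes a protein that binds the lipid made by that complex and marks the forming autophagosome. Its brighter probe set, 1374021_at (mean log2 6.84), stood at 1.75, 0.0585, 0.394 and 0.835 SD units in mulberry replicates 1 to 4 and at -0.929, -0.595, -0.155 and -1.36 in high-fat replicates 1 to 4. The diets did not overlap, with mulberry replicate 2 nearest to high-fat replicate 3. The difference was 1.52 ± 0.420 (SE, limma unadjusted p = 0.00902, exact permutation p = 0.0286, the smallest that 4 against 4 arrays allow). After quantile normalization the difference was 0.159. The other Wipi1 probe set, 1373270_at, stood at 0.776, -1.07, 0.734 and 1.70 SD units in mulberry and at -0.262, -0.695, -0.0573 and -1.12 in high-fat replicates 1 to 4. There 3 mulberry arrays were the 3 highest, but mulberry replicate 2 lay next to the lowest, and the difference was 1.07 ± 0.590 (limma unadjusted p = 0.115), with the opposite sign, -0.702, after quantile normalization. Without mulberry replicate 2 it was 1.65 (limma unadjusted p = 0.00464).

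Map1lc3a encodes LC3A, an ATG8 protein that is joined to the autophagosome membrane. It stood at 0.783, 0.407, 1.14 and 0.679 SD units in mulberry replicates 1 to 4 and at -1.85, -0.0242, -0.120 and -1.01 in high-fat replicates 1 to 4. All 4 mulberry arrays were above all 4 high-fat arrays, and the spread within the mulberry group (0.302, SD, n = 4) was smaller than within the high-fat group (0.858, SD, n = 4), where replicate 1 was lowest; that difference in spread was not tested. The difference between diets was 1.503 ± 0.433 (SE, limma unadjusted p = 0.0109, exact permutation p = 0.0286). Quantile normalization left this probe set no spread over the arrays, so it gave no value there.

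Map1lc3b encodes LC3B, the ATG8 protein most used as a marker of autophagosomes. Its shared probe set (mean log2 10.50) stood at 0.774, -0.308, 0.524 and 0.521 SD units in mulberry replicates 1 to 4 and at -0.168, 0.111, 0.800 and -2.25 in high-fat replicates 1 to 4. One array, high-fat replicate 4, was far below all others, which overlapped between the diets. The difference was 0.755 ± 0.657 (SE, limma unadjusted p = 0.289), and 0.292 without that array.

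Gabarapl2 encodes GATE-16, an ATG8 protein of the GABARAP branch. The brighter of its shared probe sets, 1367783_at (mean log2 13.28), stood at 0.332, -0.175, 0.259 and 0.806 SD units in mulberry and at -0.0810, 0.416, 0.763 and -2.32 in high-fat replicates 1 to 4. High-fat replicate 4 was again alone at the low end, and the sign of the difference rested on it: 0.611 ± 0.681 with it (SE, limma unadjusted p = 0.400) and -0.160 without. The dimmer probe set, 1380170_at, had its lowest array elsewhere, at -1.89 in mulberry replicate 1, with high-fat replicate 4 next at -1.24 (difference -0.131 ± 0.716). That difference was -0.607 without high-fat replicate 4, 0.681 without mulberry replicate 1, 0.230 after median centring and 0.707 after quantile normalization.

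Sqstm1 encodes p62, a receptor that ties ubiquitin-marked cargo to ATG8 proteins and is itself degraded with it. Its brightest probe set, 1371353_at (mean log2 9.61), stood at -1.23, -0.989, 1.06 and 0.0646 SD units in mulberry and at 0.0925, -0.138, 1.74 and -0.597 in high-fat replicates 1 to 4. High-fat replicate 3 and mulberry replicate 3 were the highest, mulberry replicates 1 and 2 the lowest, and the diets overlapped (difference -0.547 ± 0.688, SE, limma unadjusted p = 0.454). All 4 probe sets of the gene had lower means in mulberry blood, with differences from -0.547 to -0.0813 SD units and unadjusted limma p-values from 0.454 to 0.920. After median centring the 4 differences lay between 0.768 and 1.16, and after quantile normalization that of 1389381_at turned to 1.08 while 1371353_at had no spread and no value. Over the arrays, r between pairs of the 4 probe sets ran from 0.243 to 0.774 and rho from 0.405 to 0.857.

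Optn encodes optineurin, a receptor that recruits the autophagy machinery to ubiquitin-marked mitochondria. Its brighter probe set, 1370618_at (mean log2 7.60), stood at 1.10, -0.107, 0.782 and 1.11 SD units in mulberry replicates 1 to 4 and at -1.57, -0.277, 0.137 and -1.17 in high-fat replicates 1 to 4. Only mulberry replicate 2 fell below a high-fat array, replicate 3 (difference 1.44 ± 0.458, SE, limma unadjusted p = 0.0168, exact permutation p = 0.0571). The second probe set, 1388432_at, stood at 0.855, -0.0288, 2.06 and -0.295 SD units in mulberry and at -0.976, -0.405, -0.370 and -0.836 in high-fat replicates 1 to 4. There the diets did not overlap, with mulberry replicate 3 far above the rest and mulberry replicate 4 just above the highest high-fat array (difference 1.29 ± 0.519, limma unadjusted p = 0.0424, exact permutation p = 0.0286). After quantile normalization, which keeps only ranks, both probe sets were still higher (0.935 and 1.31, limma unadjusted p = 0.191 and 0.0443). They were also higher after median centring, as were 96.9% of all probe sets, so their sign there says little.

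**Figure D2:**
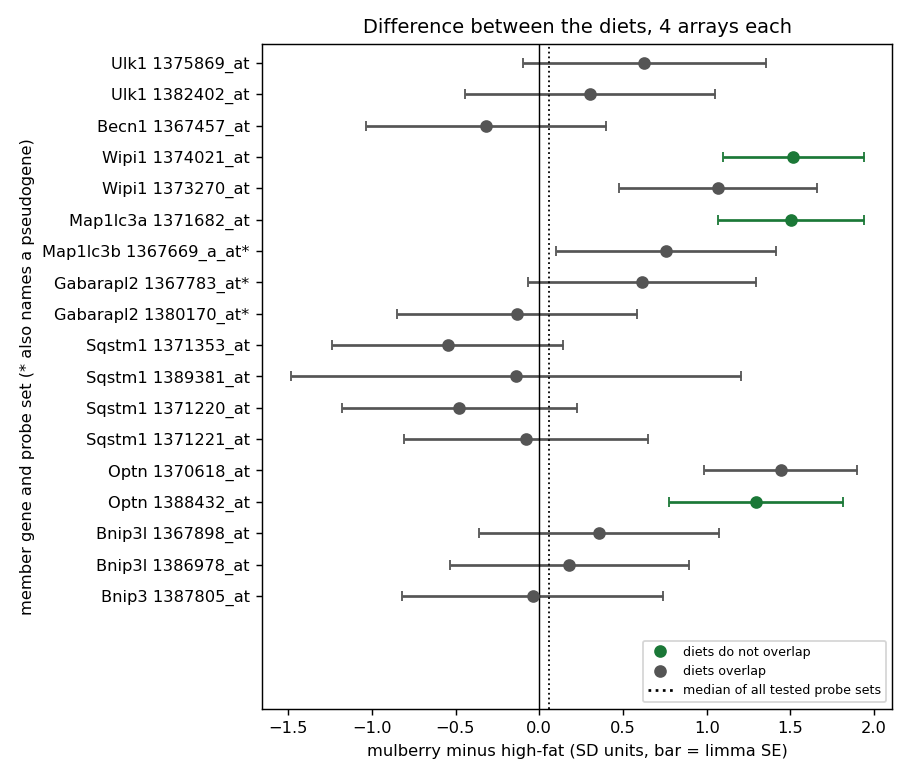
Difference between the diet means for each member probe set (x axis, mulberry minus high-fat in SD units, bar = SE from limma), 4 arrays per diet; green points are probe sets whose diets do not overlap and the dotted line is the median of all tested probe sets, 0.0560. Wipi1 1374021_at, Map1lc3a and both Optn probe sets lie between 1.29 and 1.52, and the Sqstm1, Becn1 and Bnip3 probe sets lie below 0.

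Bnip3l encodes NIX, the receptor on the outer mitochondrial membrane through which reticulocytes lose their mitochondria. Its brighter probe set, 1367898_at (mean log2 14.01), stood at 0.425, -0.155, 0.210 and 0.234 SD units in mulberry replicates 1 to 4 and at 0.659, 0.179, 0.810 and -2.36 in high-fat replicates 1 to 4. The 4 mulberry arrays lay close together, high-fat replicates 1 and 3 above all of them, and high-fat replicate 4 far below. The difference was 0.356 ± 0.715 (SE, limma unadjusted p = 0.634). Without that array it turned to -1.15 (limma unadjusted p = 0.183), in units of the smaller SD of the arrays left. The other probe set, 1386978_at, stood at 0.487, -0.852, -0.150 and 0.876 SD units in mulberry and at 0.201, 0.901, 0.558 and -2.02 in high-fat replicates 1 to 4, with the same lowest array. Its difference was 0.181 ± 0.716, and it turned to -0.742 without high-fat replicate 4 and to -0.0803 without mulberry replicate 4. Over all arrays the Bnip3l probe sets had r = 0.861 and rho = 0.476 (exact permutation p = 0.0176 and 0.243, adjusted over all same-gene pairs 0.0916 and 0.297). Without high-fat replicate 4 r was 0.476, and without that array and mulberry replicate 2 it was -0.150, so their relation rests on those arrays.

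Bnip3, a related receptor whose gene is induced by low oxygen, stood at -1.51, -0.361, 1.16 and 0.632 SD units in mulberry and at -1.35, 0.942, 0.171 and 0.319 in high-fat replicates 1 to 4. Replicate 1 was lowest in both diets and the groups overlapped throughout (difference -0.0389 ± 0.779, SE, limma unadjusted p = 0.962), which turned to 1.15 after median centring and to 0.0570 without high-fat replicate 4. Unlike Bnip3l, it was not low in high-fat replicate 4.

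Among the 45 pairs of the 10 members, each at its brightest probe set, 3 had an exact permutation p of Pearson's r under 0.05 after Benjamini-Hochberg adjustment over the pairs, and none did by Spearman's rho (lowest adjusted p = 0.100). Arrays were permuted across both diets, so a diet difference shared by both genes of a pair also enters r and its p-value. No p-value was computed within diets. Map1lc3a and Optn had r = 0.935 and rho = 0.833 (exact permutation p = 0.000967 and 0.0154, adjusted 0.0432 and 0.231). With each diet centred on its mean, r was 0.833, and without the 2 arrays farthest from the Optn median it was 0.761. Wipi1 and Optn had r = 0.906 and rho = 0.929 (exact permutation p = 0.00193 and 0.00223, adjusted 0.0432 and 0.100), 0.755 within diets and 0.882 without the 2 farthest arrays. Wipi1 and Map1lc3a, which did not pass, had r = 0.790 (exact permutation p = 0.0188, adjusted 0.169) and 0.398 within diets. Map1lc3b and Gabarapl2 had r = 0.966 and rho = 0.738 (exact permutation p = 0.00288 and 0.0458, adjusted 0.0432 and 0.412), and r was 0.784 without high-fat replicate 4 and 0.827 without the 2 farthest arrays.

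Bnip3l was set beside the last pair. Its r with Map1lc3b was 0.927 and with Gabarapl2 0.932 over 8 arrays (rho 0.738 and 0.571, exact permutation p of r 0.0187 and 0.0267, adjusted 0.169 and 0.200). Without the 2 arrays farthest from the Bnip3l median, high-fat replicates 3 and 4, r was 0.242 and 0.0614, so these relations rest on those arrays. Without high-fat replicate 4 alone r was 0.467 and 0.366.

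**Figure D3:**
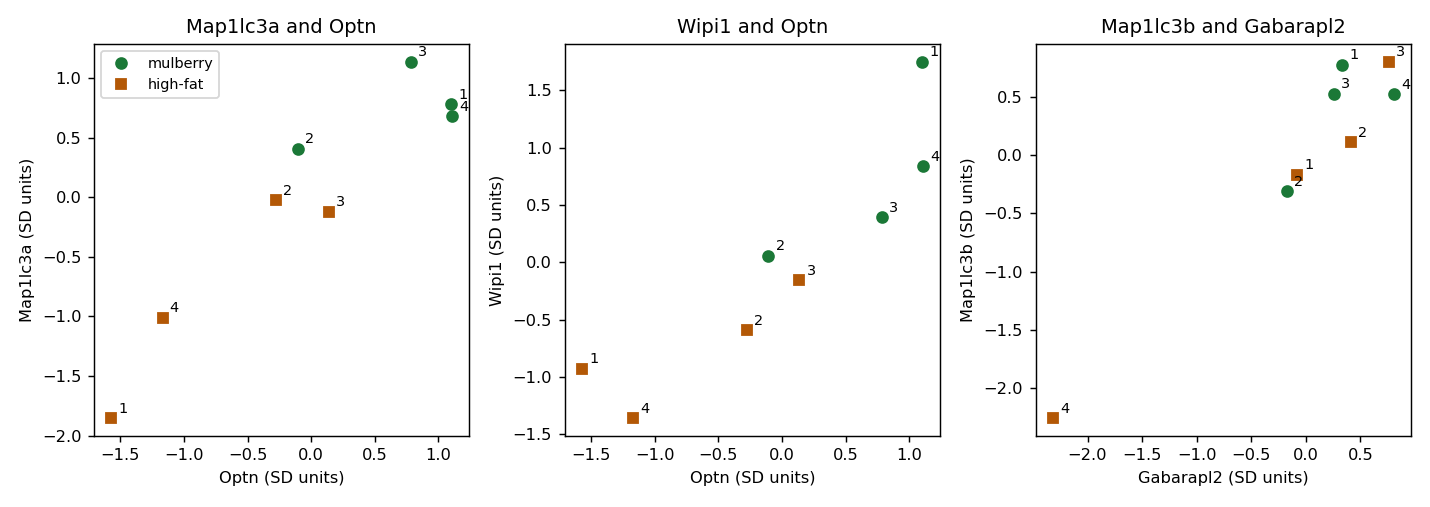
Values of 3 pairs of members on the 8 arrays (both axes in SD units; circles mulberry, squares high-fat, digits the replicate number). In the Map1lc3a and Wipi1 panels the points run along a line with the mulberry arrays at its upper end, while in the Map1lc3b and Gabarapl2 panel the diets mix and high-fat replicate 4 lies alone at -2.25 and -2.32.

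By Pearson's r over the 8 arrays, the named genes of other symbol most like each member's brightest probe set were Mas1 (0.984) and Ccdc96 (0.965) for Ulk1, Tbc1d22al (0.983) and Celf2 (0.971) for Becn1, Ube2j1 (0.981) and Vcf1 (0.975) for Wipi1, Raver1 (0.978) and LOC100909928 (0.968) for Map1lc3a, Slc16a10 (0.973) and Riok3 (0.967) for Map1lc3b, Iscu (0.980) and Inhca (0.962) for Gabarapl2, Nsd1 (0.974) and Nr0b1 (0.959) for Sqstm1, Pacs1 (0.980) and Pmf1 (0.977) for Optn, Rgs6 (0.965) and Bpgm (0.964) for Bnip3l and Tma16 (0.980) and Trim2 (0.978) for Bnip3. Among so many probe sets and with 8 arrays, values of this size are what the nearest of them reach for every member, and they describe these arrays only.

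Marker genes of blood cells were set beside the members. Over the 20 measured of 27 erythroid markers, the mean score was -0.136, -0.500, -0.329 and 0.328 SD units in mulberry and 0.934, -0.306, 0.492 and -0.484 in high-fat replicates 1 to 4, and 6 of the 20 had higher means with mulberry. Bnip3l had rho = 0.905 with this score, the strongest rank relation of the 30 computed between the 10 members and the erythroid, neutrophil and monocyte scores, and r = 0.580 (exact permutation p = 0.00456 and 0.119, adjusted over the 30 relations 0.137 and 0.787). Without the 2 arrays farthest from the median score r was 0.472, and within diets it was 0.691. None of the 30 relations passed after adjustment by either coefficient.

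The score of the 11 measured neutrophil markers (of 16) was 0.428, -0.160, 0.0475 and 0.308 in mulberry and 0.272, -1.24, 0.197 and 0.150 in high-fat replicates 1 to 4. That of the 13 measured monocyte markers (of 14) was 0.344, -0.552, -0.726 and 0.290 in mulberry and -0.0500, -0.481, -0.295 and 1.47 in high-fat replicates 1 to 4, highest in high-fat replicate 4, where Bnip3l, Map1lc3b and Gabarapl2 were lowest. Their r with the monocyte score was -0.742, -0.683 and -0.720 over all arrays (rho 0.0476, -0.143 and -0.0476, exact permutation p of r 0.0974, 0.0983 and 0.0986, adjusted 0.787 for each) and 0.311, 0.567 and 0.354 without the 2 farthest arrays, so the negative relation rests on those. Without high-fat replicate 4 alone r was 0.351, 0.357 and 0.342.

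Over the 12 measured of 16 platelet markers the score was -0.383, 0.407, -0.0834 and 1.61 in mulberry and -0.0546, -0.225, 0.172 and -1.45 in high-fat replicates 1 to 4, with all 12 means higher with mulberry, and its part in the results above was not tested. Of the lymphoid lists, 0 of 11 measured natural killer cell markers, 0 of 9 B cell markers and 8 of 15 T cell markers had higher means with mulberry, and the scores ran from -0.640 to -0.00428, -0.943 to 0.496 and -0.467 to 0.421 in mulberry and from -0.292 to 2.07, -0.812 to 1.39 and -0.446 to 1.09 in high-fat blood. Their part was not tested either. The 18 hybridization controls, bacterial and phage transcripts added to every array, scored 1.30, 0.695, 0.473 and -0.236 in mulberry and -1.44, 0.439, -0.160 and -1.07 in high-fat replicates 1 to 4. With their score in the limma model the differences were 0.820 for Map1lc3a, 0.909 and 0.825 for Optn and 1.04 and 1.36 for Wipi1, and 0 of the 18 member probe sets kept an unadjusted p under 0.05, beside 2.56% of all probe sets. With the erythroid score in the model 4 of the 18 had one, beside 4.57% of all. These were both Wipi1 probe sets, Map1lc3a and Optn 1370618_at, so Wipi1 1373270_at (limma unadjusted p = 0.0311) took the place of Optn 1388432_at (limma unadjusted p = 0.0879).

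The other genes of the pathway came from a list of 93. Of these, 87 were measured by a probe set naming 1 gene, 40 with higher and 47 with lower means in mulberry blood, and the median difference was -0.110 SD units. After adjustment none was called by limma, and before it 1 of the 87 had p under 0.05, against 4.36% of all probe sets. That gene was Atg2a, which encodes a lipid carrier recruited to the forming autophagosome with WIPI proteins. It stood at 0.814, -0.369, 0.990 and 1.60 SD units in mulberry and at -0.691, -0.806, -0.367 and -1.18 in high-fat replicates 1 to 4. Mulberry replicate 2 and high-fat replicate 3 stood level, and the other arrays were split by diet (difference 1.52 ± 0.453, SE, limma unadjusted p = 0.0127).

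By role, none of the 5 measured genes of the ULK complex and its activators had an unadjusted p under 0.05; Atg101 differed by -1.09 ± 1.13 and Rb1cc1, the scaffold FIP200, by 0.475 ± 0.694. Among 7 genes of the lipid kinase complex and its inhibitors, Pik3r4, a regulatory subunit, differed by -1.12 ± 0.575 and Rubcn, an inhibitor, by 0.967 ± 0.632. Of 9 genes for lipid binding and membrane supply, Wdr45b, a relative of Wipi1, differed by -0.805 ± 0.649, after Atg2a. In the 12 genes that encode, process or join ATG8 proteins the smallest p-values were those of the protease gene Atg4d (1.00 ± 0.606) and of Atg16l1, which directs the joining to the membrane (-0.959 ± 0.650).

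The 9 other cargo receptors had the highest median of the lists, 0.452 SD units, with 5 higher and 4 lower; Retreg1, a receptor for the endoplasmic reticulum, differed by -1.12 ± 0.576 and Rtn3, also of that compartment, by 1.08 ± 0.588. The 17 other mitophagy genes had a median of -0.350. Dnm1l, the GTPase that divides mitochondria, differed by -1.24 ± 0.537 and Rhot1, which ties mitochondria to motors, by -1.06 ± 0.597. Mfn1, a mitochondrial fusion protein, was chosen after its values were seen. It was the 1 gene of the 87 whose diets did not overlap, beside 2.52% of all probe sets. It stood at -0.497, -1.16, -0.447 and -0.531 SD units in mulberry and -0.284, -0.143, 1.79 and 1.27 in high-fat replicates 1 to 4 (difference -1.32 ± 1.12, limma unadjusted p = 0.278). By the exact permutation test 1 of the 87 had an unadjusted p under 0.05, beside 2.52% of all probe sets. That gene was Mfn1 (exact permutation p = 0.0286) and not Atg2a. For 15 genes of fusion with the lysosome the median was -0.377, with Vps41 at -1.11 ± 0.579 and Vps11 at -0.810 ± 0.649, subunits of tethering complexes. The 13 upstream regulators had a median of -0.00881, with Rheb, an activator of the autophagy inhibitor mTORC1, at -0.956 ± 0.617 and Tfeb, a transcription factor of lysosome and autophagy genes, at 0.966 ± 0.636.

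**Figure D4:**
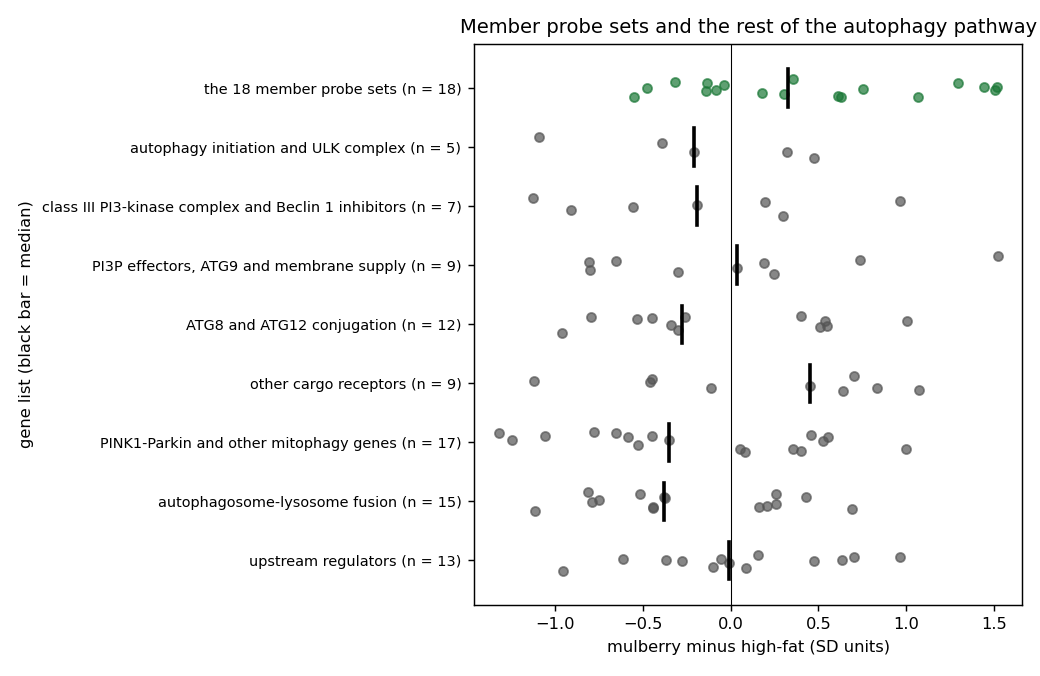
Difference between the diets (x axis, mulberry minus high-fat in SD units) for the 18 member probe sets (green) and for the 87 other pathway genes by role (grey, 1 probe set each); black bars are medians. The member probe sets reach from -0.547 to 1.52 with a median of 0.330, and the medians of the other lists lie between -0.377 and 0.452.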

How the data were processed

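Total RNA of blood kept in TRIzol LS was purified with RNeasy and 200 ng entered labelling with the GeneChip 3′ IVT Express kit, per the labels' protocols. The authors deposited 1 value per probe set and array, read here as log2 summaries from their range; how they were summarised and normalized is not stated in the labels used here. Of 31099 probe sets, 57 manufacturer controls were left out. Genes came from the platform annotation, updated by gene number in RefSeq (GRCr8): of the tested probe sets 20826 named 1 gene (20758 matched), 436 several and 9780 were unnamed here.

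All 31042 were fitted together in limma 3.58.1 (R 4.3.3; lmFit, eBayes, diet as the only term), p-values being two-sided, adjusted by Benjamini-Hochberg and called under 0.05. On 31042 simulated probe sets with the real means and SDs, this called 26% of those moved by 4 within-diet SDs, 96% at 8 and 100% at 16, and 9 unmoved ones. Exact permutation tests enumerated 70 assignments of arrays, or all orders for correlations, in Python 3.11.15. Marker scores are means of scaled genes, each gene at its brightest probe set. Precision is limited by the 8 arrays.

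Members and gene lists were chosen with earlier results of these data known. The named genes are all members, the 2 pathway genes of smallest unadjusted p per list and the 2 nearest genes per member by r. Replicate numbers are shared between the diets but not said to pair rats. Alternatives were quantile normalization, median centring, brighter probe sets, a replicate block, each array left out, another variance model, permutation, 2 covariates and 1 probe set per member; leaving high-fat replicate 4 out of the correlations was added after seeing the data.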

Additional observations from a re-analysis of the deposited data

Results flagged for a closer look

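In 50 groups of 4 arrays (18 member probe sets and 7 marker scores in each diet), 5 held an array whose gap to the next, as a share of the group's range, was above Dixon's critical value for 4 values; chance gives about 1 in 20. Among the members this was Sqstm1 1371221_at, where high-fat replicate 3 stood at 2.001 SD units (gap share 0.835). The others were marker scores: high-fat replicate 2 in the neutrophil score, at -1.24 (0.919), and in the T cell score, at 1.09 (0.880), mulberry replicate 4 in the natural killer cell score, at -0.00428 (0.845), and high-fat replicate 4 in the same score, at 2.07 (0.877). The low values of high-fat replicate 4 in Bnip3l, Map1lc3b and Gabarapl2 stayed under the critical share.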

How the results depend on the processing

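No alternative gave a member an adjusted p under 0.05. Quantile normalization gave no value for 6 member probe sets without spread. Over all probe sets it made 13 calls, none a member. Of 12 member probe sets with a value 1 had unadjusted p under 0.05 (all probe sets 2.08%), 7 were higher and 0 without overlap (0.179% of all). Of 69 other pathway genes 2 were under 0.05. The same normalization turned Wipi1 1373270_at to -0.702, Gabarapl2 1380170_at to 0.707 and Sqstm1 1389381_at to 1.08. Median centring gave 18 higher (96.9% of all probe sets), 5 without overlap (7.93%) and 11 of 87 other pathway genes under 0.05 (8.03%), and turned Becn1 to 1.17, Gabarapl2 1380170_at to 0.230, Bnip3 to 1.15 and Sqstm1 1371353_at, 1389381_at, 1371220_at and 1371221_at to 0.768, 1.16, 0.945 and 1.06; it shifts all probe sets of an array alike. With the hybridization controls 0 member probe sets and 3 other pathway genes were under 0.05, and Gabarapl2 1380170_at (0.291), Bnip3l 1367898_at (-0.0423) and 1386978_at (-0.324) turned. The erythroid score gave 3 other pathway genes and turned Gabarapl2 1380170_at to 0.140. With 1 probe set per member 7 of 10 were higher. For the other changes the cause was not tested.

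The replicate block gave 7 of 87 other pathway genes and 3 of 18 member probe sets under 0.05, beside 5.57% of all probe sets. It changed no call and no sign of a member. Same-numbered arrays did not all deviate together (r over probe sets -0.0462, -0.0505, 0.246, 0.163), so the numbers were not taken as pairs. Leaving out each array in turn gave 3 to 5 member probe sets with p under 0.05, beside 3.52% to 6.62% of all probe sets. Of the 18, 9 to 14 were higher (50.8% to 54.3% of all) and 3 to 5 without overlap (4.23% to 7.09% of all). A probe set without overlap stays so when an array is left out, so this count could not fall below 3. The 5 without overlap came without mulberry replicate 2, where 4.75% of all did not overlap. Other pathway genes under 0.05 numbered 1 to 8. There were 8 without high-fat replicate 3 (6.62% of all) and 3 without mulberry replicate 1 (4.50%). Without mulberry replicate 4 (5.21%) or high-fat replicate 2 (4.64%) there were 2. The ranges were -0.270 to 0.703 for Ulk1 1382402_at, -0.769 to 0.379 for Becn1, -0.160 to 0.941 and -0.607 to 0.681 for Gabarapl2, -0.829 to 0.302 and -0.342 to 0.900 for Sqstm1 1389381_at and 1371221_at, -1.15 to 0.672 and -0.742 to 0.508 for Bnip3l and -0.550 to 0.534 for Bnip3, all of which changed sign. Wipi1, Map1lc3a and Optn kept their sign, between 0.865 and 1.65. So did Ulk1 1375869_at (0.276 to 1.66), Map1lc3b (0.292 to 1.12), Sqstm1 1371353_at (-1.01 to -0.0765) and Sqstm1 1371220_at (-1.10 to -0.0739). For Wipi1 1374021_at, Map1lc3a and Optn 1388432_at, whose diets do not overlap, leaving out an array could not change the sign. All these ranges are in units of the SD of the arrays kept in each fit. The permutation test cannot pass adjustment over all probe sets with 4 against 4 arrays (lowest adjusted p = 1.00).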
